A study of Mus musculus with 2 samples.

Results

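The 9 genes described here encode lysosomal proteases and the secreted inhibitor of several of them. They are the cysteine cathepsin genes Ctsl, Ctss, Ctsb, Ctsh, Ctsz and Ctsc, the aspartic cathepsin gene Ctsd, the legumain gene Lgmn and the cystatin C gene Cst3. They were measured in the thymus of mice that carry a transgene of Pla2g10, the gene of group X secreted phospholipase A2, and of their littermates. All probes whose gene name in the array design equals one of these symbols were taken, which gave 12 of the 41174 probes. Of these, 11 were bright enough to be tested, against 12236 of all probes, and every one of the 9 genes had at least 1 tested probe among 9398 tested genes. RNA came from Pla2g10-Tg/+ mice and from control littermates, all on a C57BL/6 background, 6 months old and kept on the same standard diet. For each genotype the RNA of 4 mice was pooled. The arrays are read here as a dye swap of 1 pool per genotype, on 2 Agilent arrays that each take both colours. The transgenic pool carried Cy5 (red) on array 1 and Cy3 (green) on array 2, and the control pool carried the other dye. The labels name neither the promoter of the transgene nor the cells that express it.

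Cathepsins degrade proteins in the acid lumen of endosomes and lysosomes, and are made as inactive precursors. In the thymus they cut self proteins and the invariant chain, so that class II molecules can present self peptides to developing T cells. Cortical epithelial cells of the mouse rely on cathepsin L for this, while dendritic cells, macrophages and B cells rely mainly on cathepsin S. Legumain, an endopeptidase that cuts after asparagine, trims several cathepsins to their mature forms, and cystatin C is a secreted inhibitor of cysteine cathepsins. Many lysosomal genes carry the E-box CACGTG near their start, a site bound by TFEB and its relatives.

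The promoter windows below are shown because Lgmn and Ctss had the highest ratios of the 9 genes, and because Ctsd had the most copies of the E-box and no difference that held on both arrays. They are RefSeq sequences on GRCm38.p6, from 250 bases before to 50 after an annotated start. The table gave 8 windows for 7 of the 9 genes, and the members without one were Ctsb and Ctsh. Capitals mark matches on either strand to CACGTG, its longer form GTCACGTG, the ETS motif GAGGAAGT of the PU.1 kind, the interferon regulatory factor motif (GAAA and GAAA with any 2 bases between), and the TATA box TATAAA. Lgmn has 2 annotated starts, at chr12:102439679-102439978 (minus strand) and chr12:102439043-102439342 (minus strand). The Ctss window lies at chr3:95526536-95526835 (plus strand) and the Ctsd window at chr7:142387778-142388077 (minus strand).
Lgmn, first start: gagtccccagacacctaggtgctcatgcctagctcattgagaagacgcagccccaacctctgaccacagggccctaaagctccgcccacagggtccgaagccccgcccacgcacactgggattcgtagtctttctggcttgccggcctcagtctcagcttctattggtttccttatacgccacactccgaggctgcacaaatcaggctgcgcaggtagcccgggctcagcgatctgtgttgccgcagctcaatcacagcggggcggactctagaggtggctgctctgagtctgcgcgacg
Lgmn, second start: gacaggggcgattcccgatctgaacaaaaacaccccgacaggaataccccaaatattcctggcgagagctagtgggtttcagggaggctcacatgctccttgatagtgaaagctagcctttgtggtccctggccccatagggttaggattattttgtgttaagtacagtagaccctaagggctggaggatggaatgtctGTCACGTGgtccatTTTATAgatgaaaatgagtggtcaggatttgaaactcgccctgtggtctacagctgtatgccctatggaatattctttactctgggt
Ctss: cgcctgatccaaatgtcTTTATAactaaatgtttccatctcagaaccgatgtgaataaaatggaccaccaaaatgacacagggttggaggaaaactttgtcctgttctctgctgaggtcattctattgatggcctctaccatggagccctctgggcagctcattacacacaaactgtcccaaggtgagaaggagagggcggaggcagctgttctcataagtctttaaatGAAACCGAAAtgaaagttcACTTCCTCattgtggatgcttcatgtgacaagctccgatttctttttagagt
Ctsd: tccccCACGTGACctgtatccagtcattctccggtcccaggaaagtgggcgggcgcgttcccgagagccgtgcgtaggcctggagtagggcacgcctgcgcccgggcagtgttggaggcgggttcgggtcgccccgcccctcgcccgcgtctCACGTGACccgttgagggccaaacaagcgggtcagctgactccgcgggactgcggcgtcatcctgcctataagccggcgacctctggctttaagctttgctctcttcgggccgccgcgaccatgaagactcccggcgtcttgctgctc

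The first Lgmn window held none of the 5 motifs. The second held CACGTG, as part of GTCACGTG, with the first base of the shorter form at position -49 from the start, and TATAAA on the reverse strand at -37. In Ctss, the interferon regulatory factor motif began at -21, GAGGAAGT on the reverse strand began at -2 and lay across the start, and TATAAA on the reverse strand began at -233. Ctsd held GTCACGTG on the reverse strand at 2 places, from -245 and from -98, each containing CACGTG. Ctsl held 1 CACGTG, from -236, and Ctsc 1 GAGGAAGT on the reverse strand, from -151. The Cst3 and Ctsz windows held none of the motifs. CACGTG was thus in 3 of the 8 windows, against 7.15% of all 32851 promoter windows of the same length, and GTCACGTG in 2 of 8, against 2.25%. GAGGAAGT was in 2 of 8 (3.2% of all windows), the interferon regulatory factor motif in 1 of 8 (3.44%) and TATAAA in 2 of 8 (13.6%). These are matches of letters only.

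Ratios are on the log2 scale and read transgenic over control. A mean ± SD is taken over the 2 arrays, which are taken to hold the same pools. Levels are normalized intensities in arbitrary units, scaled between arrays, and they hold an offset of 50 that shrinks ratios at low signal. With 1 pool per genotype the SD is technical and the spread between animals was not measured. In whole thymus, fewer cells of a type and less RNA per cell cannot be told apart. Between 28.5% and 34.1% of spots were well above background per channel, with the higher share in red on both arrays. The only Pla2g10 probe was well above background in 0 of 4 channels, so it gives no check of the genotype labels. The tissue label was checked on 12 markers of immature thymocytes, of which 11 were measured and 1, Rag2, was not well above background in any channel.

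No member was 2-fold different between the pools. The means ran from -0.05 for Ctsb to 0.43 for Ctss, that is from 0.963-fold to 1.35-fold. In the transgenic pool, 7 of 9 were above the control in the mean of both arrays, as were 49.3% of all tested genes, and 2 of 9 were below it, against 50.7%. The sign was positive on both arrays for Lgmn, Cst3, Ctsh, Ctss, Ctsl and Ctsc. That is 6 of 9, against 28.3% of tested genes higher on both arrays, and 0 of 9 were lower on both, against 29.1%. With median centring in place of loess, 0 of 9 were higher on both arrays, against 2.07% of tested genes. That setting left all tested genes at medians of 0.38 on array 1 and -0.44 on array 2. Few genes of any kind then had 1 sign, so its counts say little about the members. The remaining 3, Ctsb, Ctsd and Ctsz, had opposite signs on the 2 arrays, as did 42.6% of tested genes. The median over the 9 genes was 0.16, but 0.083 on array 1 and 0.14 on array 2, and the median over all tested genes was -0.0023. Size was read by 3 rules: a mean of at least 1 with at least 0.5 on each array, at least 0.5 on each array, and at least 0.2 on each array, always with 1 sign. The first was passed by 0 of 9 members in either direction, against 0.0319% of tested genes higher and 0% lower. The second was passed by 0 of 9, against 0.287% higher and 0.0532% lower. The third was passed by 1 of 9, Lgmn, as higher, against 2.99% of tested genes, and by 0 of 9 as lower, against 2.34%. With an offset of 0 it was passed as higher by 3 of 9, against 8.09% of tested genes, and with median centring by 0 of 9, against 0.213%. When the dye effect was read by the same limits, with array 2 not turned, 0.67% of tested genes passed the third rule in 1 direction and 0.713% in the other, and 0 members did.

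**Figure D1:**
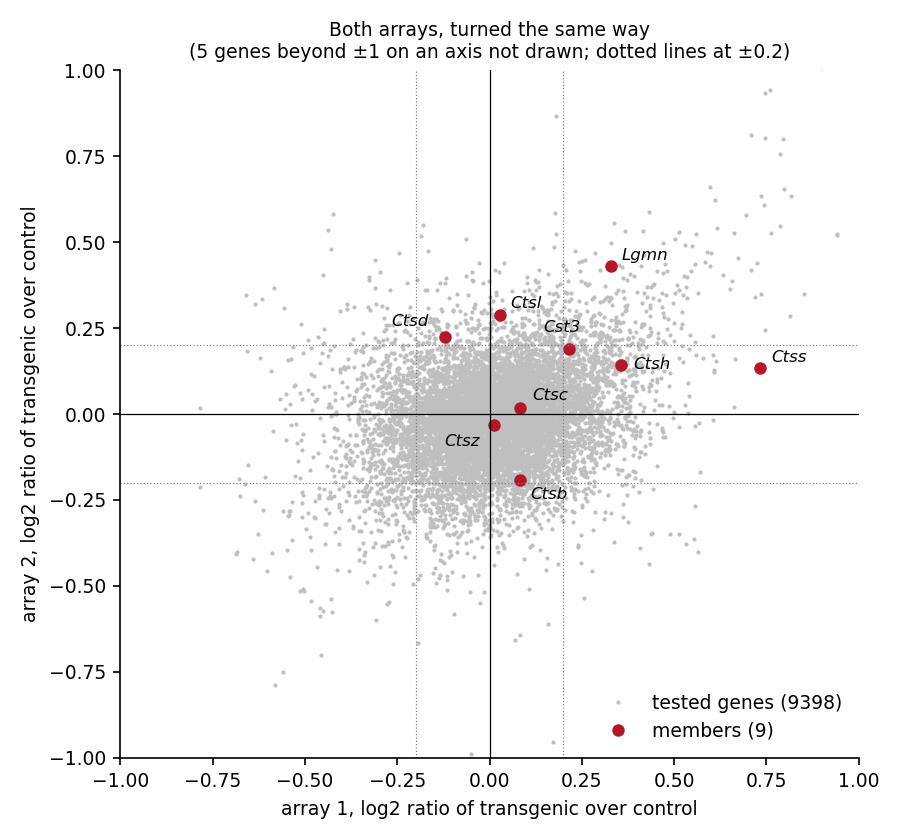
Log2 ratio of transgenic over control on array 1 (horizontal) and array 2 (vertical), both turned the same way, for 9398 tested genes (grey) and the 9 members (red); 5 genes beyond 1 in size on an axis are not drawn. Lgmn alone among the members lies beyond the dotted lines at 0.2 on both arrays, and Ctsb, Ctsd and Ctsz lie in the quadrants of opposite sign.

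Lgmn, the legumain gene, gave the one difference among the members that was past 0.2 on both arrays in the reported setting. Its probe (A_51_P110576, transcript NM_011175, mm8 chromosome 12, 102795415 to 102795474) read 175 and 180 units in the transgenic pool on arrays 1 and 2, against 139 and 133 units in the control pool. Both transgenic readings lay above both control readings. The log2 ratio was 0.33 on array 1 and 0.43 on array 2, with a mean of 0.38 ± 0.07, or 1.30-fold. Of all tested genes, 1.05% had a higher mean. With the offset set to 0 the mean was 0.57 (0.46 and 0.68 on arrays 1 and 2). By the log ratios that the scanner software wrote, it was 0.61 (0.50 and 0.73). Median centring gave the lowest mean of the other settings, 0.34. The arrays then read 0.73 and -0.04, where the medians of all tested genes were 0.38 and -0.44. With an offset of 0, Cst3 and Ctsh also passed 0.2 on both arrays, Cst3 at 0.23 on each. By the software's log ratios, Ctss passed as well.

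Cst3 encodes cystatin C, which binds and blocks cysteine cathepsins and can also inhibit legumain. Its probe (A_51_P332201, NM_009976, mm8 chromosome 2, 148563386 to 148563445) read 607 and 595 units in the transgenic pool, against 524 and 522 units in the control pool. The genotypes did not overlap, and the 2 arrays gave nearly the same ratio. It was 0.21 on array 1 and 0.19 on array 2, a mean of 0.20 ± 0.02 or 1.15-fold, with the second array just under the limit of 0.2. Of all tested genes, 6.32% had a higher mean than Cst3.

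**Figure D2:**
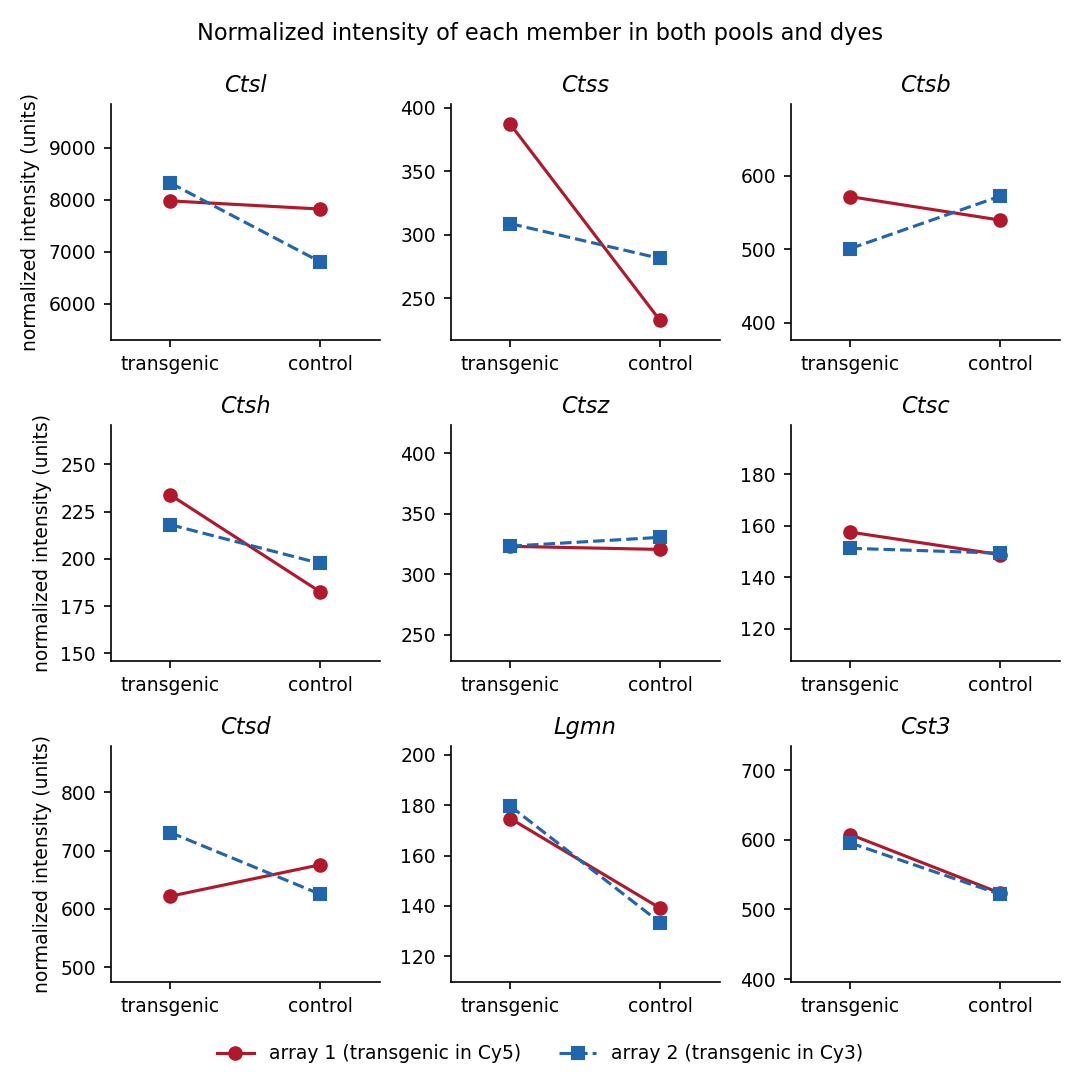
Normalized intensity (arbitrary units, linear axes that do not start at 0 and span 30% either side of the middle of the readings) of the probe that stands for each of the 9 genes, transgenic pool on the left and control pool on the right. Lines join the readings of 1 array (red circles, array 1; blue squares, array 2): both fall towards the control for Lgmn and Cst3, they slope opposite ways for Ctsb and Ctsd, and for Ctss the fall is steeper on array 1.

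Ctss, which encodes the cathepsin that removes the invariant chain in antigen-presenting cells of the blood lineage, had the highest mean but unequal arrays. Its probe (A_51_P423981, NM_021281, mm8 chromosome 3, 95641644 to 95641703) read 387 and 309 units in the transgenic pool, against 233 and 281 units in the control pool. Both transgenic readings were above both control readings, but most of the gap came from array 1. The log2 ratio was 0.73 on array 1 and 0.13 on array 2, with a mean of 0.43 ± 0.42, or 1.35-fold. The difference was therefore about as large as the spread between the arrays, and without array 1 it was 0.13, and without array 2 it was 0.73. Before normalization, the signal above local background was 455 (red) and 180 (green) units in the transgenic pool, against 154 (green) and 292 (red) units in the control pool. The dye contrast, 0.5 of the difference between the arrays, was 0.30. An additive dye effect would cancel in the mean of both arrays, but noise of 1 array would not. With 1 array per dye order the 2 cannot be told apart.

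Ctsl, Ctsh and Ctsc were also higher on both arrays. Ctsl, the main cathepsin of cortical epithelium in mice, read 7978 and 8321 units in the transgenic pool, against 7822 and 6809 units in the control pool (probe A_51_P253547, NM_009984, mm8 chromosome 13, 64378710 to 64378769). The transgenic readings were the higher ones, but array 1 showed almost no gap. The ratio was 0.03 on array 1 and 0.29 on array 2, with a mean of 0.16 ± 0.18, or 1.12-fold. Ctsl was among the 52 brightest of the tested genes. With an offset of 0 the arrays read 0.18 and 0.17, and by the scanner software 0.10 and 0.14, so the gap between the arrays depended on the processing. The mean stayed between 0.12 and 0.18 in the alternative settings.

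Ctsh encodes a cathepsin that acts mainly as an aminopeptidase. It read 234 and 218 units in the transgenic pool, against 183 and 198 units in the control pool (probe A_52_P51078, NM_007801, mm8 chromosome 9, 89873883 to 89873942). The genotypes did not overlap. The ratio was 0.36 on array 1 and 0.14 on array 2, with a mean of 0.25 ± 0.15, or 1.19-fold, and 3.77% of tested genes had a higher mean. Ctsc encodes the dipeptidyl peptidase that activates granule proteases of neutrophils, mast cells and cytotoxic lymphocytes. It read 158 and 151 units in the transgenic pool, against 149 and 149 units in the control pool (probe A_52_P195839, NM_009982, mm8 chromosome 7, 88185118 to 88185177). The transgenic readings were above the control ones by a narrow margin. The ratio was 0.05 ± 0.05, or 1.04-fold, about as large as its own spread. Normalized levels of the genotypes were without overlap in 6 of 9 members, all with the transgenic pool higher, against 23% of tested genes, and in 0 of 9 with it lower, against 24%.

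Ctsb, Ctsd and Ctsz showed no difference that held on both arrays. Ctsb, which encodes an abundant lysosomal endopeptidase and carboxypeptidase, read 572 and 501 units in the transgenic pool, against 540 and 572 units in the control pool (probe A_51_P465148, NM_007798, mm8 chromosome 14, 62097179 to 62097238). The pools overlapped and the arrays pointed in opposite directions. The ratio was 0.08 on array 1 and -0.19 on array 2, with a mean of -0.05 ± 0.19. A second Ctsb probe (A_52_P433889, mm8 chromosome 14, 62099404 to 62099463) was too dim in all 4 channels to pass the filter, and was not used.

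Ctsd encodes the main aspartic protease of lysosomes. Its brighter probe (A_51_P384629, NM_009983, mm8 chromosome 7, 142185447 to 142185506) read 622 and 731 units in the transgenic pool, against 676 and 625 units in the control pool. The pools overlapped, with the red channel the lower one of each array. The ratio was -0.12 on array 1 and 0.23 on array 2, with a mean of 0.05 ± 0.24. The dimmer Ctsd probe (A_52_P35960, mm8 chromosome 7, 142186113 to 142186266, a stretch of 154 bases) gave -0.26 and 0.08, with a mean of -0.09 ± 0.24. The 2 probes thus had means of opposite sign, both well within the spread of the arrays.

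Ctsz encodes cathepsin Z, a carboxypeptidase found mostly in cells of the immune system. Its brighter probe (A_51_P256202, NM_022325, mm8 chromosome 2, 174070666 to 174070725) read 323 and 323 units in the transgenic pool, against 321 and 331 units in the control pool. The readings overlapped in a narrow range. The ratio was -0.01 ± 0.03, and 93.4% of tested genes had a mean larger in size. The dimmer probe (A_52_P62085, mm8 chromosome 2, 174071522 to 174071581) gave -0.26 on array 1 and 0.15 on array 2, with a mean of -0.05 ± 0.29, so it was less even between the arrays than the brighter one.

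**Figure D3:**
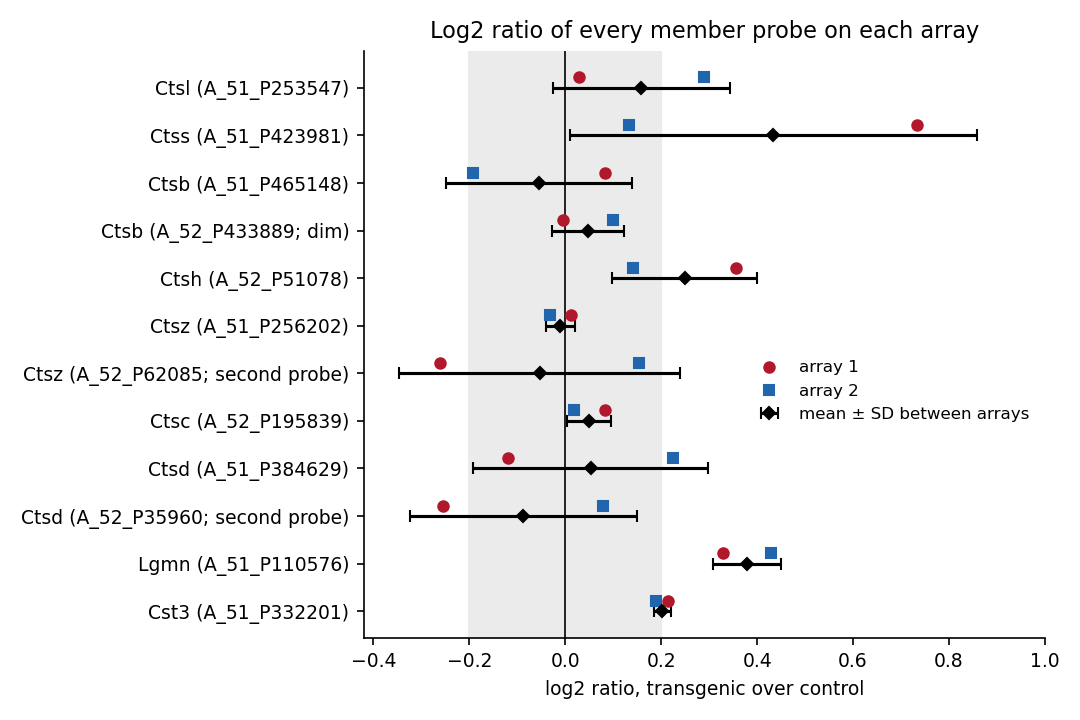
Log2 ratio of transgenic over control for all 12 member probes, with array 1 as red circles, array 2 as blue squares and the mean ± SD of the 2 arrays (n = 2) in black. The grey band marks -0.2 to 0.2: only for Lgmn do both arrays lie outside it on the same side, and the second probes of Ctsd and Ctsz have the arrays on opposite sides of 0.

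By enzyme class, the 6 cysteine cathepsin genes had a median of 0.10, with 4 of 6 above 0. The other endopeptidase genes, Lgmn and Ctsd, were at 0.38 and 0.05. The exopeptidase genes Ctsh, Ctsc and Ctsz were at 0.25, 0.05 and -0.01, and the endopeptidase genes Ctss, Ctsl and Ctsb at 0.43, 0.16 and -0.05, so the ranges of both kinds overlapped. Between neighbours in the order Ctss, Lgmn, Ctsh, Cst3, Ctsl, Ctsd, Ctsc, Ctsz and Ctsb, 7 of 8 steps in the ratio were smaller than the larger SD of the pair. The exception was the step of 0.061 from Ctsc to Ctsz, where the larger SD was 0.046. The 9 genes lie on 7 chromosomes, with Ctsd and Ctsc on chromosome 7 and Ctsz and Cst3 on chromosome 2.

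The other genes of the lysosome were measured to set the members beside their pathway. Beside the counts below, 49.3% of all tested genes were above 0, and 2.99% passed 0.2 on both arrays as higher and 2.34% as lower. Of 18 further cathepsin genes and close relatives, 3 were measured, and 14 of the rest were well above background in 0 of 4 channels. Cathepsin W, a protease gene of cytotoxic lymphocytes (Ctsw), was at 0.17 ± 0.07, and Ctso, which encodes cathepsin O, at 0.14 ± 0.10. Neither passed 0.2 on both arrays, and the median of the 3 was 0.14. Of 21 further cystatins, stefins and related inhibitors, 5 were measured, with a median of 0.09 and 5 of 5 above 0. Ctla2b and Ctla2a, which encode inhibitors resembling cathepsin propeptides, were at 0.14 ± 0.05 and 0.14 ± 0.01. They are close paralogs, so their values are uncertain, and Ctla2b was well above background in 3 of 4 channels. None of the 5 passed 0.2 on both arrays.

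The list of lysosomal hydrolases other than endopeptidases had a median of 0.06 over 28 measured of 37 genes, with 19 of 28 above 0. It also holds genes of activator and lipid-binding proteins that are not hydrolases, so its median is not that of hydrolases alone. Of the 28, 1 passed 0.2 on both arrays as higher, against 2.99% of all tested genes, and 0 as lower, against 2.34%. The gene past it was Prcp, which encodes the lysosomal prolylcarboxypeptidase, at 0.44 and 0.29 on arrays 1 and 2 (mean 0.36 ± 0.11, or 1.28-fold). Genes of the lysosomal membrane and its proton pump had a median of 0.03 over 27 of 29 genes, with 15 of 27 above 0, and array medians of -0.018 and 0.0043. None of them passed 0.2 on both arrays. Laptm5, a lysosomal membrane protein gene of blood cells, was at -0.22 ± 0.08 and Lamp1, a major glycoprotein gene of that membrane, at 0.18 ± 0.08. Genes of lysosomal sorting and transcriptional control had a median of 0.03 over 9 of 17 genes, and 0 passed. The sorting adaptor genes Gga3 and Ap1m1 were at -0.13 ± 0.06 and -0.12 ± 0.10. Of the E-box-binding factors on that list, Tfeb, Tfe3, Tfec and Mitf were well above background in 0 of 4 channels.

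**Figure D4:**
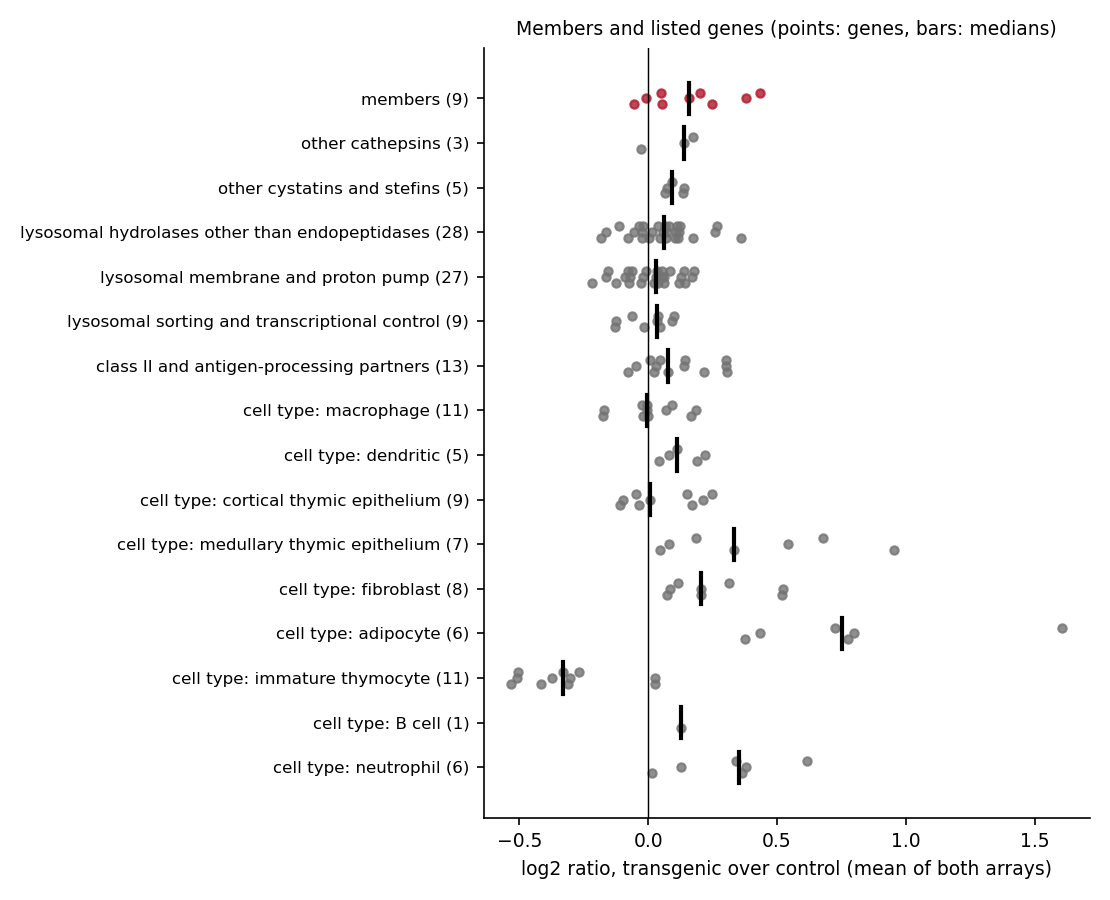
Mean log2 ratio of transgenic over control for the 9 members (red) and for the measured genes of 6 pathway lists and 9 cell type lists (grey), with the number of genes in brackets and each median as a black bar. The members' median of 0.16 lies above those of the 3 lists of lysosomal hydrolases, membrane and sorting genes (0.06, 0.03 and 0.03). It lies near that of the other cathepsins (0.14). The medians of fibroblasts, medullary epithelium, neutrophils and adipocytes are higher (0.21, 0.33, 0.35 and 0.75). With no filter on dim probes these 4 were 0.16, 0.15, 0.13 and 0.41, while that of the members stayed at 0.16. The adipocyte median rests partly on genes well above background in the transgenic pool alone.

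The list of class II pathway genes and thymic antigen-processing partners had a median of 0.08 over 13 measured of 16 genes, with 11 of 13 above 0. Its array medians were 0.019 and 0.14. The list also holds antigen-processing genes outside the class II pathway, so its median is not that of the class II genes alone. H2-DMb1 and H2-Ab1, 2 of the 13, passed 0.2 on both arrays as higher, against 2.99% of all tested genes. As lower, 0 passed, against 2.34%. H2-DMb1, which encodes a chain of the DM molecule that exchanges peptides on class II, was at 0.30 ± 0.14. For the class II chain gene H2-Ab1 the brightest probe gave 0.30 ± 0.12, while its 4 probes ran down to 0.049. Among partners chosen after their values were seen, Cd74, the gene of the invariant chain that cathepsins S and L cut, read 0.01 on array 1 and 0.42 on array 2. Prss16, the gene of the thymus-specific serine protease of cortical epithelium, read 0.15 and -0.13. For both genes the arrays lay further apart than 0.2.

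Marker lists of the cell types in the thymus gave different medians. Of all tested genes, 49.3% were above 0, 2.99% passed 0.2 on both arrays as higher and 2.34% as lower. Macrophage markers had a median of -0.0033 over 11 measured of 20 genes, with 4 of 11 above 0 and none past 0.2 on both arrays. They ran from C1qb, a complement chain gene, at -0.18 ± 0.15 to Aif1 at 0.19 ± 0.03. Summed over the list, the level was 2280 and 2217 units in the transgenic pool, against 2141 units in the control pool on each array. Such a sum follows the brightest genes of a list, so it can differ from the median and does not measure cell numbers. Dendritic cell markers had a median of 0.11 over 5 of 15 genes, from Bst2 at 0.04 ± 0.23 to Sirpa at 0.22 ± 0.0049, with 5 of 5 above 0. Sirpa alone passed 0.2 on both arrays, and it is also expressed by macrophages. The sum of their levels was 1091 and 1124 units in the transgenic pool, against 1046 and 997 units in the control pool, and the defining markers Itgax, Flt3, Clec9a and Zbtb46 were well above background in 0 channels.

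Cortical epithelial markers had a median of 0.0073 over 9 of 11 genes, from Tbata at -0.11 ± 0.04, whose other probe read 0.27, to Ly75 at 0.25 ± 0.11. Summed, they read 15009 and 15029 units in the transgenic pool, against 14146 and 13370 units in the control pool, and Foxn1 was well above background in 0 channels. Medullary epithelial markers had a median of 0.33 over 7 of 10 genes, from Krt17 at 0.05 ± 0.01 to Ccl21a at 0.95 ± 0.08, with 4 of 7 past 0.2 on both arrays. By the scanner software their median was 0.69, and with no filter on dim probes 0.15. Their summed level was 1631 and 1630 units in the transgenic pool, against 1233 and 1282 units in the control pool. The medullary markers Fezf2, Cldn3 and Cldn4 were well above background in 0 channels. Fibroblast markers had a median of 0.21 over 8 of 10 genes, from Col1a1 at 0.07 ± 0.27 to Mgp at 0.52 ± 0.19, with 3 of 8 past 0.2. Their levels summed to 2635 and 2564 units in the transgenic pool, against 2251 and 2138 units in the control pool.

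Adipocyte markers had a median of 0.75 over 6 of 10 genes, all 6 past 0.2 on both arrays, from Lpl at 0.38 ± 0.03 to Cfd. Cfd, the adipsin gene, was well above background in the transgenic pool alone, on both arrays, and was at least 2.97-fold higher there, counted against the dimmest signal well above background. The same held for Cidec, Car3 and Cidea, at least 1.27-fold, 1.62-fold and 1.59-fold higher, so the median also rests on ratios that are only bounds. That median was 1.85 with an offset of 0, 2.44 by the scanner software and 0.41 with no filter on dim probes. The summed level of the adipocyte list was 1793 and 1709 units in the transgenic pool, against 1036 and 979 units in the control pool, while Plin1, Lep and Retn were well above background in 0 channels. Neutrophil markers had a median of 0.35 over 6 of 9 genes, from Mpo at 0.01 ± 0.04 to S100a9 at 0.62 ± 0.01, with 3 of 6 past 0.2. By the scanner software the neutrophil median was 0.68, and with no filter on dim probes 0.13. For this list the levels summed to 1659 and 1516 units in the transgenic pool, against 1180 and 1109 units in the control pool. Of 6 B cell markers only Cd79b was measured, at 0.13 ± 0.03, and Cd79a, Ms4a1 and Pax5 were well above background in 0 channels.

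For immature thymocyte markers the median was -0.33. By their brightest probe, 9 of 11 genes passed 0.2 on both arrays as lower, against 2.34% of all tested genes. Among the 9, the probes of Arpp21 ran from -0.37 to 0.45 and those of Cd8a from -0.56 to -0.19. The list ran from Ccr9 at -0.53 ± 0.10 to Cd1d1 at 0.03 ± 0.03. Summed levels were 21495 and 21424 units in the transgenic pool, against 27648 and 27973 units in the control pool. These shifts in cell markers stood beside the ratios of Lgmn, Cst3, Ctsh and Ctss, and their part in those ratios was not tested.

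**Figure D5:**
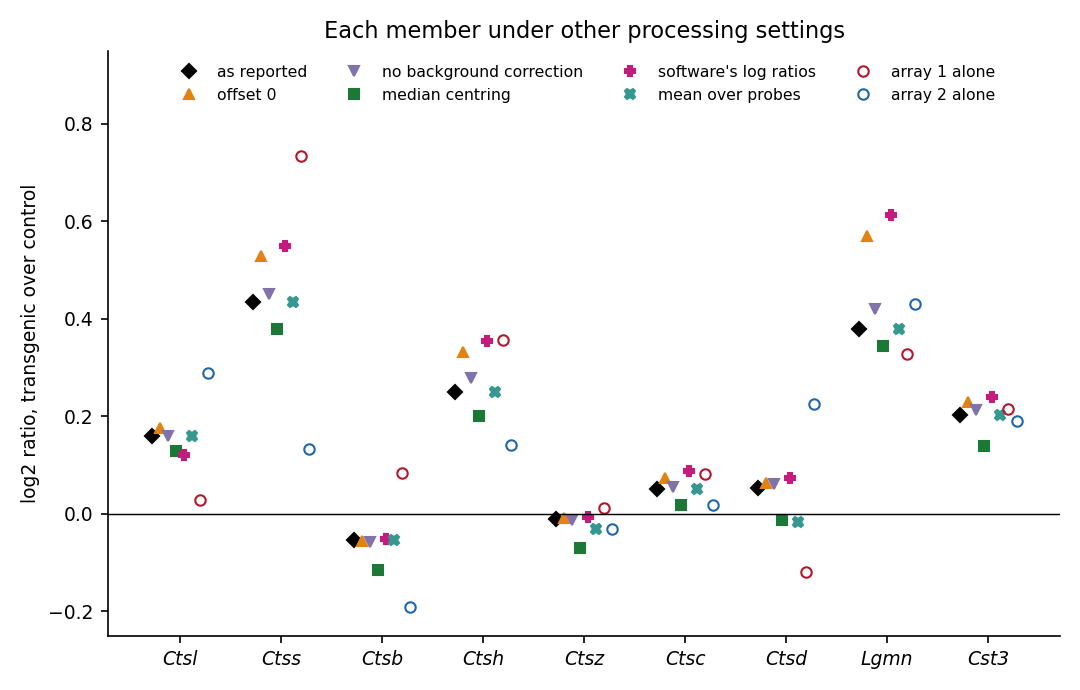
Log2 ratio of transgenic over control (vertical) of each member as reported (black) and under other processing settings (coloured symbols), with each array alone as open circles. The means of Lgmn, Cst3, Ctsh, Ctss, Ctsl and Ctsc lie above 0 in every setting drawn. Their single arrays do so in the reported setting, but with median centring each of these genes had opposite signs on the arrays. Ctsb, Ctsd and Ctsz have single arrays on both sides of 0 in the reported setting, and Ctsd also has means on both sides.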

How the data were processed

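RNA of 4 mice was pooled per genotype, and labelling started from 500 ng of RNA, per the labels' protocols. Since the labels do not name separate pools, the arrays count as 1 dye-swapped measurement. The deposited scanner files hold mean spot and local background intensity, not background corrected, written by Feature Extraction 9.5.1.1, with probe positions on mm8, per the file headers. They also hold processed intensities and a log10 ratio of red over green, from runs with spatial detrending on and lowess dye normalization settings, per the file headers. In the series table, the deposited log10 values equal the log10 ratio of the processed signals within 5e-10, so array 2 is not turned there. Their medians over all rows were -0.113 and -0.101, while over tested genes, turned and on the log2 scale, they were 0.0025 and -0.0011. No annotation of mm8 was used, so the exon or UTR of a probe is not given.

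Mean signals were corrected by normexp (offset 50), followed by loess within arrays, where control and outlier spots had weight 0 (limma 3.58.1, R 4.3.3). The outlier spots (46 on array 1, 37 on array 2) did not enter the values. Array 2 was turned, so that log2 ratios read transgenic over control. Levels were scaled by Aquantile. A probe was tested if well above background in 1 genotype's channel on both arrays, and the brightest tested probe stood for a gene. RefSeq symbols (GRCm38.p6) named the probes, 23374 by accession, 6733 by symbol and 2919 by synonym, and 8148 kept the design's name. The arrays' signal over background limits the precision: its median over tested genes was 91.5 units. Over tested genes, the ratios of the 2 arrays, turned the same way, had a Pearson correlation of only 0.311. The scripts were run on simulated arrays with a constant dye factor and known changes of at least 2-fold. That run does not cover differences as small as those of the members.

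The members and lists were chosen with earlier results of these data known. Named genes were the 9 members, the genes of each pathway list past 0.2 on both arrays or else the 2 of largest size, and the highest and lowest of each cell type list. Defining markers below background, Cidec, Car3, Cidea, Cd74, Prss16, Arpp21 and Cd8a were added after their values were seen.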

Additional observations from a re-analysis of the deposited data

How the results depend on the processing

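The other settings were an offset of 0, no background correction, median centring, the software's log ratios, the series table, no filter on dim probes and the mean over probes. For the members, the series table gave the software's values again, no filter returned the reported values, and the mean over probes could change only Ctsd and Ctsz, so these add little. Ctsd alone changed the sign of its mean. It read -0.014 with median centring and -0.018 as the mean over its probes. Ctss ran from 0.38 to 0.55, Lgmn from 0.34 to 0.61, Ctsh from 0.20 to 0.35 and Cst3 from 0.14 to 0.24. Past 0.2 on both arrays were 3 members with an offset of 0 (Cst3, Ctsh and Lgmn), against 8.09% of tested genes. There were 4 by the software's log ratios or the series table (those and Ctss), against 9.29%. With median centring 0 members passed it, against 0.213%, and 0 were higher on both arrays, against 2.07%. All tested genes then had medians of 0.38 on array 1 and -0.44 on array 2, and -0.035 in the mean, so these counts say little about the members. With an offset of 0, 1 member, Ctsz, was lower on both arrays, against 29.2% of tested genes.

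Over all tested genes, the 2-fold rule gave 26 higher and 1 lower with an offset of 0, 33 and 5 with the software's log ratios or the series table, and 1 higher with median centring. At 0.5 on each array the counts were 128 higher and 42 lower with an offset of 0, 181 and 72 with the software's log ratios or the series table, 3 and 0 with median centring, and 3 lower with the mean over probes. At 0.2 they were 760 and 616 with an offset of 0, 873 and 698 with the software's log ratios or the series table, and 20 and 10 with median centring. Of the same sign on both arrays were 195 higher and 420 lower genes with median centring, and 7295 and 7130 with no filter on dim probes, which brings in more genes. Where limma took each array as its own sample, the test was of technical spread alone. Of 9398 tested genes, 93 were then higher and 56 lower with adjusted p under 0.05. Of the 9 members, 1 was among those higher, Lgmn, and 0 among those lower.

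On single arrays the members' median was 0.083 to 0.14. Of the 9 members, 0 to 1 were at least 0.5 higher, 3 to 4 at least 0.2 higher and 1 to 2 below 0. Of all 9398 tested genes, 39 to 89 were at least 0.5 higher and 28 to 65 lower. Of the same 9398, 684 to 1338 were at least 0.2 higher and 872 to 1052 lower, with 4362 to 4964 above 0 and 4434 to 5036 below. No paired analysis was possible because each ratio already pairs the 2 pools on 1 array. Of 135 list medians under an alternative, each array alone included, 75 moved by less than the spread between the arrays and 60 by more. The single arrays also define that spread, so their part of these counts is no separate check. The medians of 4 lists lay on both sides of 0 over the 7 settings: other cathepsins (-0.019 to 0.24), the membrane and pump (-0.024 to 0.042), macrophages (-0.024 to 0.061) and cortical epithelium (-0.037 to 0.081). Besides the adipocyte, medullary and neutrophil medians given above, others moved by over 1.5 times. They ran from 0.038 to 0.31 (other cystatins), 0.030 to 0.098 (hydrolases), 0.00076 to 0.054 (sorting) and 0.044 to 0.21 (class II and antigen-processing partners). Among cell types they ran from 0.056 to 0.27 (dendritic cells), 0.065 to 0.21 (B cells) and 0.16 to 0.33 (fibroblasts). Lists with few measured genes and members near the offset are the least precise.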
